A study of Saccharomyces cerevisiae with 18 samples.

Results

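Aminoacyl-tRNA synthetases are the enzymes that load each amino acid onto its transfer RNA (tRNA). The genes described here are 35 of the 7126 counted gene identifiers of budding yeast (Saccharomyces cerevisiae), chosen by identifier among those that encode these enzymes. They fall into 21 genes for cytosolic enzymes and 14 genes for enzymes that act in mitochondria. RNA was sequenced from wild-type (WT) cells and from cells with the HOG1 gene replaced by a KAN cassette (HOG1-KO), the parent of both being labelled BY4741, a laboratory strain. HOG1 encodes the kinase that is switched on by high osmolarity. Salt-treated cultures received 0.4 M NaCl for 15 min, and basal cultures received none. All cultures grew in YPD, a rich medium that contains amino acids, to exponential phase, and poly(A) RNA was selected in each case. Experiment 1 held WT salt and WT basal cells, and experiment 2 held HOG1-KO salt, HOG1-KO basal, WT salt and WT basal cells. Each of the 6 groups had 3 biological replicates.

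Each synthetase recognises 1 amino acid and the tRNAs that decode it, spends ATP to activate the amino acid and joins it to the end of the tRNA. Yeast translates in the cytosol and, for the few proteins encoded by mitochondrial DNA, in mitochondria with their own tRNAs, so most amino acids need an enzyme in each place. Both kinds of enzyme are encoded in the nucleus and made in the cytosol. For alanine, glycine, histidine and valine, 1 gene (ALA1, GRS1, HTS1 or VAS1) gives both forms, and these 4 are counted here as cytosolic. Mitochondrial cysteine is handled by the product of CRS1, also counted as cytosolic and described with that class, and glutamine is placed on mitochondrial tRNA by another route through PET112, HER2 and GTF1. In starved yeast, uncharged tRNA activates the kinase Gcn2, which raises translation of the transcription factor Gcn4, an activator of amino acid synthesis genes and of several cytosolic synthetases.

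The libraries held between 11135883 and 16527859 counts. A single cytosolic member had 979 to 25006 counts in a library, and a single mitochondrial member had 48 to 1452, so the mitochondrial values rest on fewer reads. HOG1 had 0 counts in the HOG1-KO salt libraries and 1 in the HOG1-KO basal libraries together, against 12353 and 8751 in the WT salt and WT basal libraries of experiment 2. LEU2, MET17 and URA3, which BY4741 lacks, were counted in experiment 1 (LEU2 sums of 7690 in salt and 6419 in basal cells), while in experiment 2 each had 0 to 2 counts per library. The WT cells of experiment 1 therefore go against their label, and strain markers and library kit differ together between the experiments. Within experiment 2, WT salt replicate 2 and WT basal replicate 1 stood apart from their groups: 13 of 14 mitochondrial members in each were above the mean of the other 2 replicates, with a median difference of 0.29 and 0.28 on the log2 scale. Cytosolic members in these libraries were above it by a median of 0.12 and 0.10. Results that these libraries change are given with and without them. Levels below are CPM, that is counts scaled by library size and TMM factors within each experiment, so they are shares of the counted RNA, and a change in total RNA per cell cannot be told apart from them.

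The cytosolic synthetases were abundant transcripts and the mitochondrial ones were scarce. Per kilobase of coding sequence, the median cytosolic member stood at 149 CPM in WT salt and 300 CPM in WT basal cells of experiment 1, where the median mitochondrial member stood at 18.1 and 15.3 CPM. The median of all genes was 32.1 CPM per kilobase in WT salt and 31.1 in WT basal cells of experiment 1. In experiment 2 the cytosolic median was 265 CPM per kilobase in HOG1-KO salt cells, 388 in HOG1-KO basal cells, 216 in WT salt cells and 362 in WT basal cells. The mitochondrial median in the same groups was 13.6, 11.01, 13.9 and 10.9 CPM per kilobase. DED81, the asparagine enzyme, had the highest mean level of the cytosolic class in all 6 groups, and CRS1, the cysteine enzyme, the lowest. DED81 and the aspartate enzyme DPS1 did not differ beyond their spread in salt-treated WT cells of experiment 1, at 421 ± 69.6 and 419 ± 36.9 CPM per kilobase (SD, n = 3). DIA4, annotated as a putative serine enzyme, was the lowest of the mitochondrial class in all 6 groups, and in HOG1-KO salt cells it lay within the spread of NAM2 (5.98 ± 0.464 against 6.06 ± 0.705 CPM per kilobase). MSK1 for lysine led the mitochondrial class in experiment 1, while MST1 for threonine and SLM5 for asparagine had the highest means in experiment 2. These lay within each other's spread in HOG1-KO salt, WT salt and WT basal cells, at 32.4 ± 3.96 for SLM5 and 32.1 ± 2.90 CPM per kilobase for MST1 in WT salt cells.

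**Figure D1:**
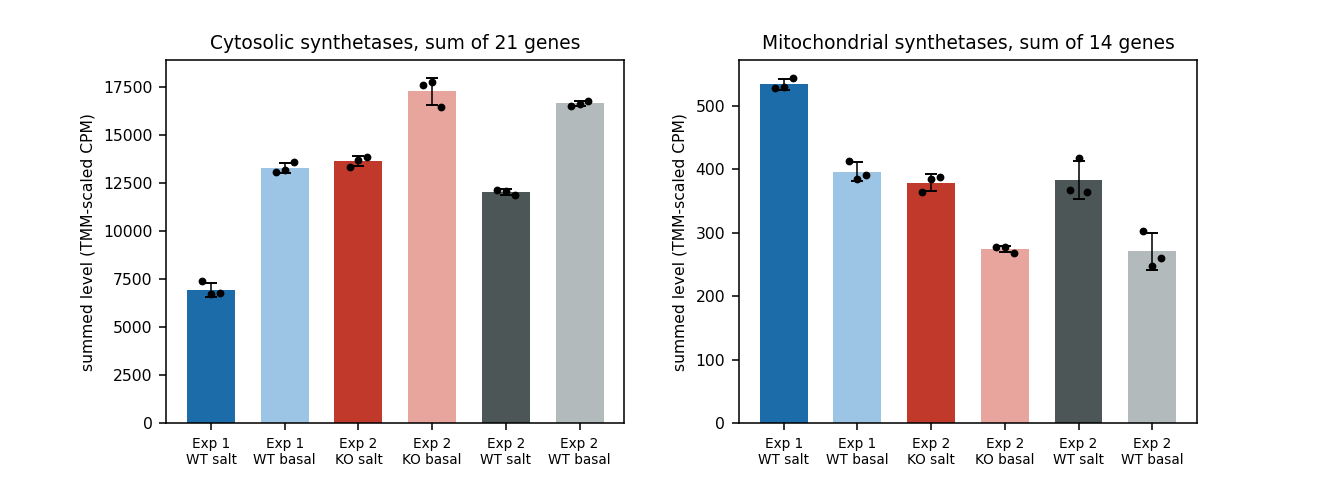
Summed levels (TMM-scaled CPM) of the 21 cytosolic synthetases and of the 14 mitochondrial synthetases in each group, with a bar for the mean, an error bar for the SD of 3 libraries and a point per library. The cytosolic sum was 6968 in salt and 13304 in basal WT cells of experiment 1, and the mitochondrial sum was 534 in salt and 396 in basal cells.

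The sums over each class moved in opposite directions in salt. In experiment 1 the 21 cytosolic genes summed to 7390, 6745 and 6770 CPM in the 3 salt libraries, against 13108, 13183 and 13620 CPM in the 3 basal libraries. The 14 mitochondrial genes summed to 528, 530.0 and 544 CPM in salt, against 413, 385 and 391 CPM in basal cells. No salt library overlapped a basal library in either class. In experiment 2 the cytosolic sum was 13652 ± 270.0 CPM in HOG1-KO salt and 17282 ± 712 CPM in HOG1-KO basal cells, and it was 12042 ± 140 CPM in WT salt and 16656 ± 138 CPM in WT basal cells (SD, n = 3 each). The mitochondrial sum was 379 ± 13.3 CPM in HOG1-KO salt and 275 ± 5.20 CPM in HOG1-KO basal cells, and it was 383 ± 29.6 CPM in WT salt and 271 ± 29.1 CPM in WT basal cells. The plot of class sums shows these values by library, and the groups did not overlap within a strain. Since the highly expressed members dominate a sum, the members were also tested one by one.

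In experiment 1, salt lowered 19 of 21 cytosolic synthetases and raised none, and it raised 8 of 14 mitochondrial synthetases and lowered none. All 35 members passed the low-count filter. A gene is called higher or lower where edgeR's adjusted p, over all 5878 genes tested, was under 0.05. Among all tested genes 33.8% were lower and 35.4% were higher, against 90.5% of the cytosolic class lower and 57.1% of the mitochondrial class higher. The median log2 change of salt over basal was -1.09 for the cytosolic class, 0.35 for the mitochondrial class and 0.02 for all genes. For the directions without a call, the number of members at an unadjusted p under 0.05 was 0 and DESeq2 also called 0.

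MES1 (YGR264C), the methionine enzyme, whose product supplies both initiator and elongator tRNA, changed most. It stood at 129, 125 and 127 CPM in the 3 salt libraries, against 459, 447 and 445 CPM in the 3 basal libraries, a log2 change of -1.83 ± 0.09 (SE, edgeR adjusted p = 1.64e-09). The 3 salt libraries lay close together and far below the basal ones. CRS1 (YNL247W), the cysteine enzyme, had 82.6, 89.3 and 90.6 CPM in salt, against 291, 292 and 283.5 CPM in basal cells (-1.72 ± 0.08, edgeR adjusted p = 2.33e-09). Its groups did not overlap either. The proline enzyme YHR020W fell by 1.59, the leucine enzyme CDC60 by 1.46, the isoleucine enzyme ILS1 by 1.43 and the arginine enzyme YDR341C by 1.36 on the log2 scale. Further down stood WRS1 for tryptophan (-1.17), THS1 for threonine (-1.16), GLN4 for glutamine (-1.09), KRS1 for lysine (-0.99), TYS1 for tyrosine (-0.82) and SES1 for serine (-0.82). The smallest called decreases were FRS1 (-0.72) and FRS2 (-0.38), which encode the beta and alpha subunits of the phenylalanine enzyme, and DED81 (-0.60). FRS2 was not called in at least 1 of the alternative fits.

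ALA1, GRS1, HTS1 and VAS1, which like CRS1 serve both compartments, were among the 19 lower genes. ALA1 (YOR335C) had 303, 292 and 298 CPM in salt, against 763, 723 and 707 CPM in basal cells (-1.30 ± 0.09, edgeR adjusted p = 9.12e-08). GRS1 (YBR121C) had 342, 364 and 353 CPM in salt, against 819, 789 and 797 CPM in basal cells (-1.18 ± 0.09, edgeR adjusted p = 2.34e-07). In both genes every salt library was under 400 CPM and every basal library over 700 CPM. HTS1 (YPR033C) had 212.5, 203 and 197 CPM in salt, against 401, 408 and 435 CPM in basal cells (-1.02 ± 0.09, edgeR adjusted p = 5.19e-07). VAS1 (YGR094W) had 524, 481 and 482 CPM in salt, against 994, 985 and 1003 CPM in basal cells (-1.01 ± 0.10, edgeR adjusted p = 1.66e-06). Counts per gene do not separate the transcripts for the cytosolic and mitochondrial forms of these enzymes.

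GUS1 and DPS1 were the 2 cytosolic members without a called change, and they are described here because their values stood out. GUS1 (YGL245W), the glutamate enzyme, had 613, 542 and 529.8 CPM in salt, against 584, 611 and 625 CPM in basal cells (-0.11 ± 0.10, edgeR adjusted p = 0.339). DPS1 (YLL018C), the aspartate enzyme, had 766, 642 and 699 CPM in salt, against 623, 630.0 and 715 CPM in basal cells (0.10 ± 0.11, edgeR adjusted p = 0.442). The groups overlapped for both genes. Gus1 and Mes1 proteins bind the cofactor Arc1 in 1 complex, and the transcripts of this complex did not move alike in experiment 1: MES1 had the largest decrease of the class, GUS1 had no called change, and ARC1 had 384, 384 and 410 CPM in salt, against 560, 594 and 581 CPM in basal cells (-0.56 ± 0.09, edgeR adjusted p = 0.000166).

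Among the mitochondrial enzymes MSF1 (YPR047W), for phenylalanine, rose most, with 23.2, 26.4 and 25.4 CPM in salt, against 12.9, 10.9 and 13.4 CPM in basal cells (1.01 ± 0.13, edgeR adjusted p = 2.57e-05). MST1 (YKL194C), for threonine, had 52.5, 60.7 and 57.2 CPM in salt, against 34.97, 28.5 and 32.8 CPM in basal cells (0.82 ± 0.11, edgeR adjusted p = 3.22e-05). All salt libraries were above all basal libraries for both. MSK1 for lysine (0.74), SLM5 for asparagine (0.65), AIM10, annotated as a putative proline enzyme (0.60), MSD1 for aspartate (0.57), DIA4 (0.36) and NAM2 for leucine (0.34) also rose. DIA4 and NAM2 lost their call in at least 1 alternative fit. MSM1 for methionine (0.24), MSR1 for arginine (0.21), MSE1 for glutamate (0.11), MSY1 for tyrosine (0.04), ISM1 for isoleucine (-0.04) and MSW1 for tryptophan (-0.06) were not called.

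**Figure D2:**
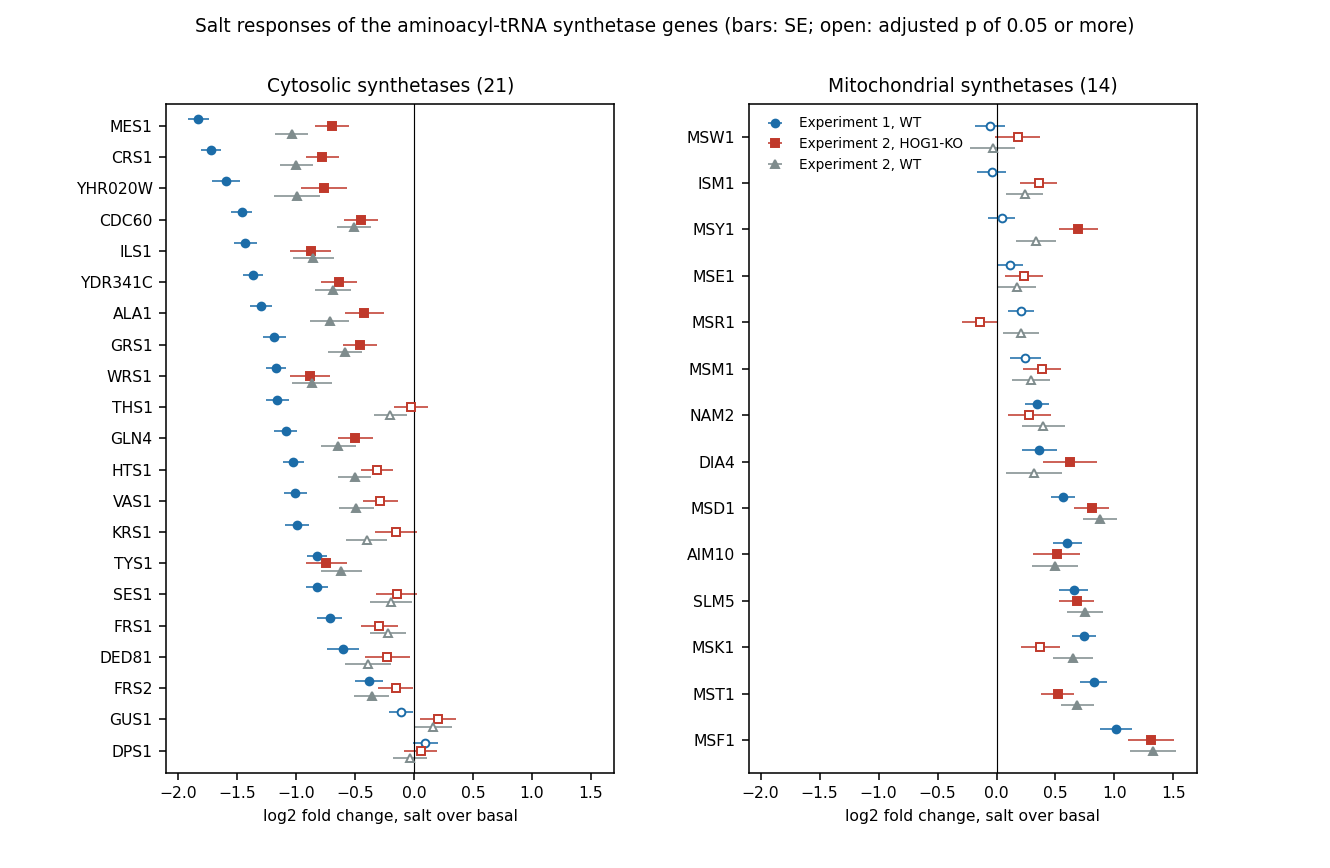
Log2 fold change of salt over basal for each synthetase gene, with the SE as a bar, in WT cells of experiment 1 (circles), HOG1-KO cells (squares) and WT cells of experiment 2 (triangles); filled symbols had an adjusted p under 0.05. Filled symbols lie left of 0 for cytosolic genes and right of 0 for mitochondrial genes in all 3 comparisons, from -1.83 for MES1 to 1.33 for MSF1.

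The promoters of each class were searched for 4 motifs, in sequence from the RefSeq reference (build R64) for 250 bases before and 50 bases from the start codon of each gene. Both strands were searched for the core of the Gcn4 site (TGACTC), the stress response element STRE (AGGGG), bound by the stress activators Msn2 and Msn4, and the cores of 2 motifs known from ribosome assembly genes, PAC (GATGAG) and RRPE (AAAATTT). The RRPE core was found in 17 of 21 cytosolic promoters (81.0%), in 1 of 14 mitochondrial ones (7.14%) and in 23.2% of all 6007 coding genes. The Gcn4 core was found in 9 cytosolic promoters (42.9%), in 0 mitochondrial ones and in 7.97% of all. A count of 0 of 14 has an exact 95% binomial upper bound of 23.2%. The PAC core was found in 7 cytosolic promoters (33.3%), 1 mitochondrial promoter (7.14%) and 20.4% of all, and the STRE in 1 cytosolic promoter (4.76%), 4 mitochondrial promoters (28.6%) and 21.6% of all. Some matches do not lie wholly upstream. The PAC matches of THS1 and WRS1 begin 1 base before the start codon and run into it. The Gcn4 match of GLN4 and the STRE of NAM2 lie inside the coding sequence. Where RRPE matches on opposite strands overlap, as in CRS1 and DED81, the promoter was still counted once. These matches describe letters only.

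**Figure D3:**
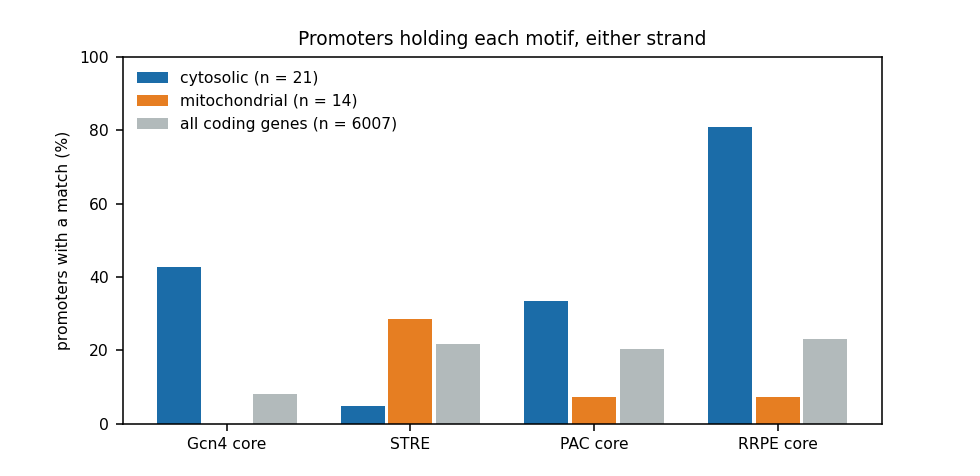
Percentage of promoters with at least 1 match to each motif core on either strand, for the 21 cytosolic genes, the 14 mitochondrial genes and all 6007 coding genes. The RRPE core is in 81.0% of cytosolic, 7.14% of mitochondrial and 23.2% of all promoters.

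The following promoters belong to the cytosolic genes with the largest decreases (MES1 and CRS1), the cytosolic genes without a called change in experiment 1 (GUS1 and DPS1), a pair of neighbours that share an upstream region (DED81 and YHR020W) and the mitochondrial gene with the largest increase (MSF1). Each is written 5′ to 3′ on the strand of its gene, and capitals mark motif matches on either strand. MES1 lies on the minus strand of chromosome VII (chrVII:1021804-1022103), and its promoter has an RRPE core 158 and another 100 bases before the start codon.
MES1: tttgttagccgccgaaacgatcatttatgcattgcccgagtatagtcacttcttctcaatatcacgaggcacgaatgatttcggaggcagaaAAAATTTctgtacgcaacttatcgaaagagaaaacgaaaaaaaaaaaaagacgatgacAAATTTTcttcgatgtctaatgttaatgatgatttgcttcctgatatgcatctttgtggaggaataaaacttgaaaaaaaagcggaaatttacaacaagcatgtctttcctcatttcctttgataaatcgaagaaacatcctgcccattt
CRS1 lies on the plus strand of chromosome XIV (chrXIV:182625-182924), with RRPE cores 152, 129 and 128 bases, a PAC core 142 bases and a Gcn4 core 86 bases before the start codon.
CRS1: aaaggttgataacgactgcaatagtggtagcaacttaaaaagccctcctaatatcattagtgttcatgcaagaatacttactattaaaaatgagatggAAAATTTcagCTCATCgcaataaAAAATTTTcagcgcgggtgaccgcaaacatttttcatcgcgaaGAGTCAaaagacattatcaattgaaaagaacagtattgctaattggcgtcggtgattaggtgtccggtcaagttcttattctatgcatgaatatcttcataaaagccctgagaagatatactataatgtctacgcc
GUS1 lies on the plus strand of chromosome VII (chrVII:38773-39072), with a PAC core 167 and an RRPE core 140 bases before the start codon.
GUS1: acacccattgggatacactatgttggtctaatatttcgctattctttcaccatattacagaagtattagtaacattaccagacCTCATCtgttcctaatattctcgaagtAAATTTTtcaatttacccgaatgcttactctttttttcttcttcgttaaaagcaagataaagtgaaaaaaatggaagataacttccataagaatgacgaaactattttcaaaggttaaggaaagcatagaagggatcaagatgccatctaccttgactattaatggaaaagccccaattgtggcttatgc
DPS1 lies on the minus strand of chromosome XII (chrXII:111526-111825), with a PAC core 224 bases before the start codon.
DPS1: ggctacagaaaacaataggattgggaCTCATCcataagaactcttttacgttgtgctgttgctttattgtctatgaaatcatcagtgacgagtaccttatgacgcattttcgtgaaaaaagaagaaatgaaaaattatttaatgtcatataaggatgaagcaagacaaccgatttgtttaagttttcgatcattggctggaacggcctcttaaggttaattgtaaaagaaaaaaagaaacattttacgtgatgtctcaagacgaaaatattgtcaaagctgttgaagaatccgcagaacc
DED81 lies on the minus strand of chromosome VIII (chrVIII:143509-143808), with RRPE cores 184 and 183 bases before the start codon.
DED81: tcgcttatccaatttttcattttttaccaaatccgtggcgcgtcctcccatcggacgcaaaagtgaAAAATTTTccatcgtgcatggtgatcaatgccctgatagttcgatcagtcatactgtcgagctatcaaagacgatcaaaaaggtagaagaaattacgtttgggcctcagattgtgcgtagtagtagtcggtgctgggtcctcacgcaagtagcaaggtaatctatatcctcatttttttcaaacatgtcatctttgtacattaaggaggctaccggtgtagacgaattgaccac
YHR020W lies on the plus strand of chromosome VIII (chrVIII:143746-144045), with a Gcn4 core 182 bases before the start codon.
YHR020W: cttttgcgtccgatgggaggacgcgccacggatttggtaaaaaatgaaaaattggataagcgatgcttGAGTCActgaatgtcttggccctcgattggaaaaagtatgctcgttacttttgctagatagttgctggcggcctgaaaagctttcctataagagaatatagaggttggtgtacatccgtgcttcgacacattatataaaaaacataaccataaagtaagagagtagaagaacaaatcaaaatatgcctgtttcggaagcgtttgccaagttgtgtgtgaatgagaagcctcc
MSF1 lies on the plus strand of chromosome XVI (chrXVI:657279-657578), and none of the 4 cores was found in its window.
MSF1: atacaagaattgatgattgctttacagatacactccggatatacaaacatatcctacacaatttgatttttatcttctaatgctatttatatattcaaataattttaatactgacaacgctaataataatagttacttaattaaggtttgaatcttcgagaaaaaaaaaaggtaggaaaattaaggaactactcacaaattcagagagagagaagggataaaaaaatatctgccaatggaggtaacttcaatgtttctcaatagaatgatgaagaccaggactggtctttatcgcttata

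GUS1, which had no called change, carries the PAC and RRPE cores, as CRS1 does. The 17 cytosolic genes with an RRPE core had a median log2 change of -1.09 in WT cells of experiment 1, and the 4 without it (ALA1, DPS1, KRS1 and YHR020W) had -1.15. In experiment 2 the median with and without an RRPE core was -0.45 and -0.29 in HOG1-KO cells, and -0.51 and -0.56 in WT cells. YHR020W is counted without an RRPE core, but those of its neighbour DED81 lie just beyond the edge of the YHR020W window. The middle value of ALA1, DPS1 and KRS1 was that of KRS1, at -0.99 in WT cells of experiment 1. In experiment 2 it was -0.15 in HOG1-KO and -0.40 in WT cells, again that of KRS1. The order of the RRPE medians in WT cells therefore depends on how YHR020W is counted. The 9 cytosolic genes with a Gcn4 core (ALA1, CRS1, GLN4, ILS1, KRS1, THS1, VAS1, YDR341C and YHR020W) were all lower in experiment 1, with a median of -1.30, and the 12 without it included 10 lower genes, with a median of -0.82. The match of GLN4 lies inside its coding sequence. The ranges overlapped, at -1.72 to -0.99 with the core and -1.83 to 0.10 without it. In experiment 2 the median with and without a Gcn4 core was -0.50 and -0.30 in HOG1-KO cells, and -0.69 and -0.45 in WT cells. Likewise, DED81 is counted without a Gcn4 core, but that of YHR020W lies just beyond the edge of the DED81 window.

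DED81 and YHR020W are transcribed away from each other, and their start codons are 437 bases apart on chromosome VIII. They are described because of this arrangement, chosen after their values were seen. DED81 had 834, 628 and 638 CPM in salt, against 956, 1062 and 1167 CPM in basal cells of experiment 1 (-0.60 ± 0.13, edgeR adjusted p = 0.00162). YHR020W had 330, 264 and 265 CPM in salt, against 813, 849 and 929 CPM in basal cells (-1.59 ± 0.12, edgeR adjusted p = 1.19e-07). The groups did not overlap for either gene, and the decrease of YHR020W was the larger one. In experiment 2 YHR020W fell in HOG1-KO (-0.76 ± 0.20) and WT cells (-0.99 ± 0.20). DED81 was not called there (-0.22 ± 0.19 in HOG1-KO and -0.39 ± 0.19 in WT cells), with adjusted p-values of 0.0139 to 0.812 in HOG1-KO and 0.00454 to 0.273 in WT cells over the alternative fits. The difference between the 2 genes was not tested.

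In WT cells of experiment 2 salt lowered 14 of 21 cytosolic synthetases (66.7%) and raised 6 of 14 mitochondrial ones (42.9%), beside 27.2% of all 6107 tested genes lower and 30.1% higher. The median log2 change was -0.51 for the cytosolic class, 0.36 for the mitochondrial class and 0.04 for all genes. The numbers of cytosolic genes called higher and mitochondrial genes called lower by edgeR were 0, with 0 at an unadjusted p under 0.05 and 0 by DESeq2. All 14 of these cytosolic genes and all 6 of these mitochondrial genes were also called in the same direction in experiment 1. The cytosolic changes were larger in size in experiment 1 for 20 of 21 genes. The difference between the experiments was not tested, and library kit and strain markers cannot be told apart in it. Without the 2 WT libraries that stood apart, a fit chosen after seeing the data, 16 cytosolic genes were lower and 6 mitochondrial genes higher. The share of all genes called in that fit is not given.

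MES1 and CRS1 again had the largest decreases. MES1 had 471, 393 and 453 CPM in WT salt, against 858, 919.5 and 926 CPM in WT basal cells (-1.04 ± 0.14, edgeR adjusted p = 1.33e-05). CRS1 had 144, 144 and 163 CPM in WT salt, against 263, 300.2 and 339 CPM in WT basal cells (-0.999 ± 0.140, edgeR adjusted p = 1.76e-05). Neither gene's groups overlapped. YHR020W (-0.99), WRS1 (-0.86), ILS1 (-0.85), ALA1 (-0.72), YDR341C (-0.69), GLN4 (-0.64), TYS1 (-0.62), GRS1 (-0.58), CDC60 (-0.51), HTS1 (-0.50), VAS1 (-0.49) and FRS2 (-0.36) also fell. CDC60, FRS2, HTS1, TYS1 and VAS1 lost their call when only the 6 WT libraries were fitted. The values of KRS1 (-0.40), DED81 (-0.39), FRS1 (-0.22), THS1 (-0.20), SES1 (-0.20), DPS1 (-0.03) and GUS1 (0.17) were not called. THS1 and KRS1 were called by DESeq2.

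Among mitochondrial enzymes MSF1 had 14.5, 21.3 and 17.2 CPM in WT salt, against 8.35, 6.22 and 6.49 CPM in WT basal cells of experiment 2 (1.33 ± 0.20, edgeR adjusted p = 3.24e-05). MSD1 had 31.8, 36.5 and 37.0 CPM in WT salt, against 21.6, 17.2 and 18.5 CPM in WT basal cells (0.88 ± 0.15, edgeR adjusted p = 0.000111). Salt and basal libraries did not overlap for either gene, the deviating WT salt replicate 2 and WT basal replicate 1 included. SLM5 (0.75), MST1 (0.68), MSK1 (0.65) and AIM10 (0.50) also rose. AIM10 was not called without the 2 deviating libraries (0.43 ± 0.20, edgeR adjusted p = 0.0693), and MSY1 was then called (0.37 ± 0.14, edgeR adjusted p = 0.0271). Over all alternative fits the adjusted p ranged from 0.0187 to 0.226 for AIM10 and from 0.0211 to 0.472 for MSY1. NAM2 (0.40), MSY1 (0.33), DIA4 (0.32), MSM1 (0.30), ISM1 (0.24), MSR1 (0.21), MSE1 (0.17) and MSW1 (-0.03) were not called with all libraries.

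In HOG1-KO cells salt lowered 11 of 21 cytosolic synthetases (52.4%) and raised 7 of 14 mitochondrial ones (50.0%), beside 25.6% of all genes lower and 28.8% higher. The median log2 change was -0.42 for the cytosolic class, 0.45 for the mitochondrial class and 0.02 for all genes. The opposite calls numbered 0 by edgeR, with 0 at an unadjusted p under 0.05 and 0 by DESeq2. All 11 cytosolic genes and 5 of the 7 mitochondrial genes were also called in the same direction in WT cells of experiment 2. In this strain the replicate number was taken to pair the salt and basal libraries, from correlations within these data. With that number as a block on the 6 HOG1-KO libraries, 15 cytosolic genes were lower and 10 mitochondrial genes were higher. GUS1 was then higher too (0.20 ± 0.09, edgeR adjusted p = 0.0388, within a range of 0.0388 to 0.574 over all alternative fits). The shares of all genes above belong to the fit of all 12 libraries. No share is given for the block fit, so its counts cannot be set against one. Under total-count scaling 65.3% of all called genes were higher, against 52.9% under TMM, and the median of all genes moved to 0.19. Under that scaling 7 of 21 cytosolic genes were lower, beside 1054 of all 6107 tested genes.

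WRS1 and ILS1 had the largest decreases in HOG1-KO cells. WRS1, the tryptophan enzyme, had 275, 275 and 271 CPM in HOG1-KO salt, against 478, 608 and 424 CPM in HOG1-KO basal cells (-0.88 ± 0.17, edgeR adjusted p = 0.000459). ILS1, the isoleucine enzyme, had 673, 719 and 702.5 CPM in HOG1-KO salt, against 1314, 1233 and 1291 CPM in HOG1-KO basal cells (-0.87 ± 0.17, edgeR adjusted p = 0.000605). The salt libraries of both genes lay below all basal ones, and HOG1-KO basal replicate 2 was the highest for WRS1. CRS1 (-0.78), YHR020W (-0.76), TYS1 (-0.74), MES1 (-0.70), YDR341C (-0.64), GLN4 (-0.50), GRS1 (-0.46), CDC60 (-0.45) and ALA1 (-0.42) also fell. GLN4, GRS1, CDC60 and ALA1 lost this call in at least 1 alternative fit, with adjusted p-values of up to 0.141, 0.161, 0.187 and 0.121. HTS1 (-0.32), FRS1 (-0.29), VAS1 (-0.29) and DED81 (-0.22) were not called, and each was called lower under the block on HOG1-KO libraries, with edgeR adjusted p-values of 0.000610, 0.00255, 0.00200 and 0.0139, and also when the 6 HOG1-KO libraries were fitted without it. Their highest adjusted p over all alternative fits was 0.489, 0.625, 0.536 and 0.812. FRS2 (-0.16), KRS1 (-0.15), SES1 (-0.15), THS1 (-0.02), DPS1 (0.06) and GUS1 (0.21) were not called.

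MSF1 had 18.9, 17.5 and 19.0 CPM in HOG1-KO salt, against 7.52, 6.365 and 8.43 CPM in HOG1-KO basal cells (1.31 ± 0.19, edgeR adjusted p = 4.48e-05). MSD1 had 31.9, 37.05 and 37.15 CPM in HOG1-KO salt, against 21.6, 19.8 and 19.3 CPM in HOG1-KO basal cells (0.81 ± 0.15, edgeR adjusted p = 0.000257). Neither gene's groups overlapped. MSY1 (0.69), SLM5 (0.68), DIA4 (0.62), MST1 (0.52) and AIM10 (0.51) also rose in HOG1-KO cells. DIA4 and AIM10 lost this call in at least 1 alternative fit, with adjusted p-values of up to 0.131 and 0.159. MSM1 (0.38), MSK1 (0.37) and ISM1 (0.36) were not called, and each was called higher under the block on HOG1-KO libraries, with edgeR adjusted p-values of 0.000903, 0.00170 and 0.00181, and also without the block on these 6 libraries. Their highest adjusted p over all alternative fits was 0.139, 0.298 and 0.246. NAM2 (0.28), MSE1 (0.23), MSW1 (0.18) and MSR1 (-0.14) were not called.

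Of ALA1, GRS1, HTS1 and VAS1, 2 were lower in HOG1-KO cells (ALA1 and GRS1) and 4 in WT cells of experiment 2, and CRS1 was lower in both strains. ALA1 had 632, 624 and 638 CPM in HOG1-KO salt, against 867, 856 and 810.1 CPM in HOG1-KO basal cells (-0.42 ± 0.16, edgeR adjusted p = 0.0400). In WT cells ALA1 had 581, 429 and 575 CPM in salt, against 728, 937 and 936 CPM in basal cells (-0.72 ± 0.16, edgeR adjusted p = 0.00160). The deviating WT salt replicate 2 was the lowest and WT basal replicate 1 the lowest of its group. GRS1 had 684, 660 and 728 CPM in HOG1-KO salt, against 994, 945 and 904 CPM in HOG1-KO basal cells (-0.46 ± 0.15, edgeR adjusted p = 0.0153). In WT cells GRS1 had 676, 631 and 548 CPM in salt, against 992, 896 and 891 CPM in basal cells (-0.58 ± 0.15, edgeR adjusted p = 0.00304). Its groups did not overlap in either strain. HTS1 had 412, 400.4 and 423 CPM in HOG1-KO salt, against 532, 523 and 484 CPM in HOG1-KO basal cells, and 334, 335 and 295 CPM in WT salt, against 489, 440.2 and 438 CPM in WT basal cells. VAS1 had 828, 933 and 877 CPM in HOG1-KO salt, against 1095, 1106 and 1014 CPM in HOG1-KO basal cells, and 688, 644 and 761 CPM in WT salt, against 880, 1013 and 1046 CPM in WT basal cells. The salt libraries of HTS1 and VAS1 lay below the basal ones in both strains, although their HOG1-KO changes were not called in the fit of all 12 libraries.

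**Figure D4:**
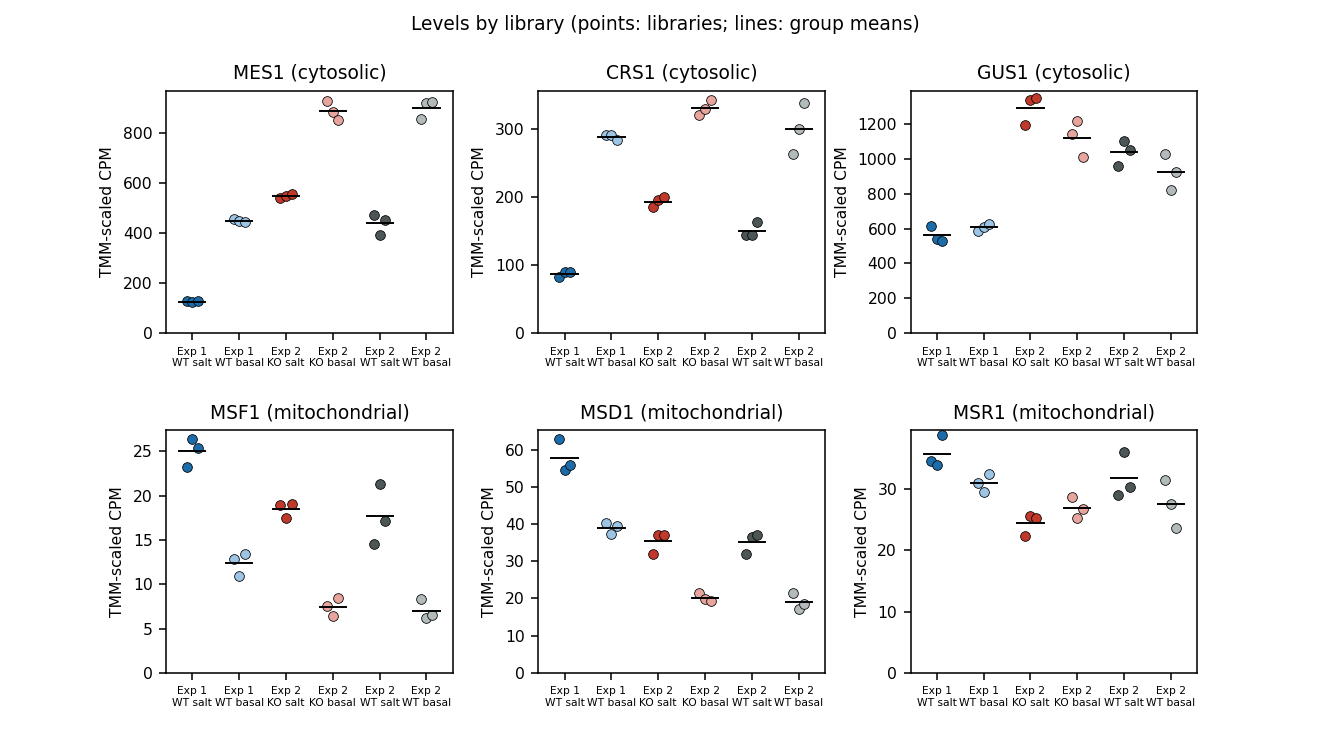
TMM-scaled CPM of 6 members in each library (points) with the group mean (line), on axes that start at 0. MES1 and CRS1 are lower in salt in all 3 pairs of groups, GUS1 overlaps, MSF1 and MSD1 are higher in salt, and MSR1 in salt averaged 24.4 CPM in HOG1-KO and 31.7 CPM in WT cells of experiment 2.

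Whether HOG1 changed the salt response was tested as the difference between the HOG1-KO and WT responses of experiment 2. It passed the test for 0 of 35 members by edgeR, with 0 at an unadjusted p under 0.05 and 0 by DESeq2, beside 4.57% of all genes with a higher and 5.24% with a lower difference. The smallest adjusted p was 0.371, for MES1 (0.34 ± 0.20), and among mitochondrial genes 0.419, for MSR1 (-0.35 ± 0.22). Standard errors of the difference were 0.19 to 0.33 on the log2 scale, and differences of the size measured for MES1 were not detectable with these libraries. The difference was positive for 17 of 21 cytosolic genes, with a median of 0.14. It was positive for 7 of 14 mitochondrial genes (median -0.00) and for 3058 of all 6107 genes (median 0.001). The median mitochondrial difference was 0.19 without WT salt replicate 2 and -0.12 without WT basal replicate 1, and -0.00885 without both. This comparison uses the same libraries as the 2 responses above and is not independent of them.

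Between the strains in basal cells 0 of 35 members were called by edgeR, with 0 at an unadjusted p under 0.05 and 0 by DESeq2, beside 0.475% of all genes higher and 0.508% lower in HOG1-KO. The median log2 difference of HOG1-KO over WT was 0.03 for the cytosolic class, -0.04 for the mitochondrial class and 0.02 for all genes. GUS1 had the largest value (0.28 ± 0.15, edgeR adjusted p = 0.544), with 1140.0, 1213 and 1010.0 CPM in HOG1-KO basal cells, against 1028, 820.2 and 923 CPM in WT basal cells. The groups overlapped. Without the 2 deviating WT libraries GUS1 was called higher (0.36 ± 0.11, edgeR adjusted p = 0.0352), and over all alternative fits its adjusted p ranged from 0.0352 to 0.975.

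Between the strains in salt 0 of 35 members were called by edgeR, beside 12.8% of all genes higher and 12.4% lower in HOG1-KO. At an unadjusted p under 0.05 stood 4 cytosolic genes and 1 mitochondrial gene higher and 1 mitochondrial gene lower. DESeq2 called 5 cytosolic genes higher and MSR1 lower, beside 924 genes higher and 864 lower over all genes. The log2 difference of HOG1-KO over WT was positive for 20 of 21 cytosolic genes, with a median of 0.17. It was positive for 8 of 14 mitochondrial genes (median 0.01) and for 2968 of all 6107 genes (median -0.02). CRS1 had the largest value, with 185, 195.5 and 200.2 CPM in HOG1-KO salt, against 144, 144 and 163 CPM in WT salt cells (0.36 ± 0.14, edgeR adjusted p = 0.0692). HTS1 followed (0.36 ± 0.14, edgeR adjusted p = 0.0699). MSR1, the mitochondrial arginine enzyme, had 22.4, 25.7 and 25.2 CPM in HOG1-KO salt, against 29.0, 36.0 and 30.3 CPM in WT salt cells (-0.38 ± 0.15, edgeR adjusted p = 0.0817). The groups of CRS1, HTS1 and MSR1 did not overlap. Without the 2 deviating WT libraries 6 cytosolic genes (CRS1, GUS1, HTS1, KRS1, MES1 and VAS1) and 3 mitochondrial genes (DIA4, MSM1 and MSY1) were called higher. The share of all genes called in that fit is not given, so these counts cannot be set against it. Under total-count scaling 69.0% of all called genes were higher, against 50.8% under TMM.

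For 14 amino acids the cytosolic and mitochondrial enzymes come from separate genes, and their ratio within a library does not depend on how libraries are scaled. The cytosolic gene was the higher one, per kilobase, for all 14 amino acids in every library. The median ratio was 8.02-fold in salt and 19.7-fold in basal WT cells of experiment 1, 19.9-fold in HOG1-KO salt and 43.3-fold in HOG1-KO basal cells, and 20.1-fold in WT salt and 41.1-fold in WT basal cells of experiment 2. The mean log2 ratio was lower in salt for 14 of 14 amino acids in each strain and experiment. Salt and basal libraries did not overlap for 14 amino acids in WT cells of experiment 1, for 13 in HOG1-KO cells and for 12 in WT cells of experiment 2. No such count is given for other pairs of genes, so how common this separation is remains unknown. The ratios recombine the member levels described above and are not independent of those changes. The median change of the log2 ratio was -1.47 in experiment 1, -0.83 in HOG1-KO and -0.94 in WT cells of experiment 2, and the last was -1.03 without the 2 deviating libraries.

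The methionine pair MES1 and MSM1 had log2 ratios of 1.60, 1.58 and 1.96 in salt, against 3.79, 3.66 and 3.89 in basal cells of experiment 1. In HOG1-KO cells its log2 ratios were 3.63, 3.66 and 3.70 in salt, against 4.81, 4.68 and 4.74 in basal cells. In WT cells of experiment 2 they were 4.05, 3.34 and 3.74 in salt, against 4.76, 5.35 and 5.04 in basal cells. Salt libraries lay below basal ones in each case. The largest change in experiment 1 was that of the proline pair YHR020W and AIM10 (-2.20), and in experiment 2 that of the phenylalanine pair, FRS1 and FRS2 over MSF1 (-1.55 in HOG1-KO and -1.61 in WT cells). The glutamate pair GUS1 and MSE1 changed least, by -0.23 in experiment 1, -0.02 in HOG1-KO and -0.01 in WT cells of experiment 2. Its log2 ratios were 5.87, 6.15 and 5.95 in HOG1-KO salt, against 6.11, 6.09 and 5.84 in HOG1-KO basal cells, and the groups overlapped. The serine pair SES1 and DIA4 also overlapped in WT cells of experiment 2.

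**Figure D5:**
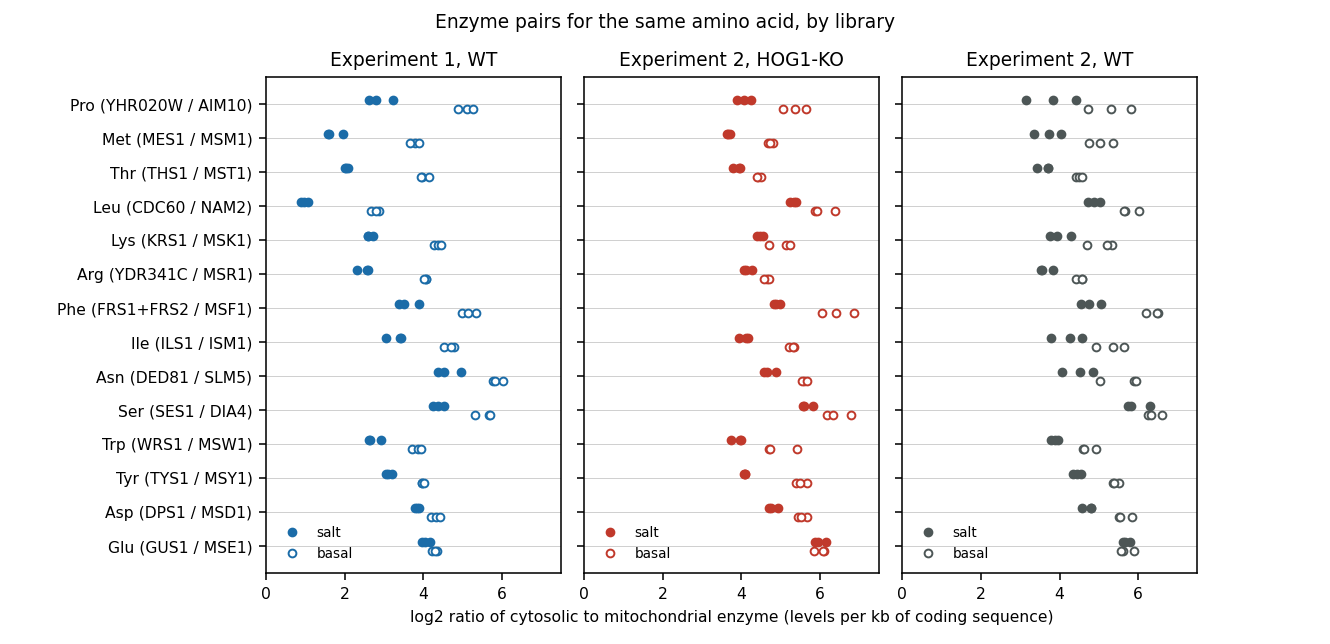
Log2 ratio of the cytosolic to the mitochondrial enzyme of the same amino acid, from levels per kilobase, with a filled point per salt library and an open point per basal library in each strain and experiment. Filled points lie left of open points for nearly every pair, and the glutamate pair at the bottom overlaps in both strains of experiment 2.

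Genes related to tRNA charging were counted beside the shares of all genes given above, which in WT cells of experiment 1 were 35.4% higher and 33.8% lower, in HOG1-KO cells 28.8% and 25.6%, and in WT cells of experiment 2 30.1% and 27.2%. Of 16 genes for cofactors, tRNA export, splicing and repair, 5 rose and 8 fell in WT cells of experiment 1, 4 rose and 6 fell in HOG1-KO cells, and 4 rose and 4 fell in WT cells of experiment 2, and the rising counts and the last falling count are near the shares of all genes. PET112, a subunit of the mitochondrial amidotransferase that makes glutaminyl-tRNA, rose in experiment 1 (0.70 ± 0.12), in HOG1-KO (0.68 ± 0.18) and in WT cells of experiment 2 (1.00 ± 0.18). GRS2, a second glycine enzyme gene that is not among the 35, had 25.1, 36.9 and 34.5 CPM in salt, against 22.4, 19.9 and 17.6 CPM in basal cells of experiment 1 (0.69 ± 0.16, edgeR adjusted p = 0.00186). GRS2 also rose in HOG1-KO (1.21 ± 0.16) and WT cells (1.18 ± 0.16) of experiment 2, while its paralog GRS1 fell in all 3 comparisons. How reads shared by these paralogs were counted is not given in the sources used here. FMT1, which formylates mitochondrial initiator methionine, rose in experiment 1 (1.06 ± 0.19). SEN34 of the tRNA splicing endonuclease (-1.67 ± 0.13), the tRNA exporter LOS1 (-1.10 ± 0.10) and the tRNA ligase TRL1 (-1.01 ± 0.17) fell there. The export receptor MSN5 was the 1 gene of the group with a called difference of responses (-0.58 ± 0.18, edgeR adjusted p = 0.0487).

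Nearly all genes for enzymes that modify tRNA fell. Of 28 such genes 27 fell and 1 rose in experiment 1, with a median log2 change of -1.54, and 25 fell in HOG1-KO and 26 in WT cells of experiment 2. TRM11 (-5.34 ± 0.16), TRM2 (-4.35 ± 0.13) and TRM1 (-3.87 ± 0.14), which methylate tRNA bases, had the largest decreases in experiment 1. The deaminase gene TAD2 rose there (0.66 ± 0.12). The difference of responses was higher for 7 of the 28, beside 4.57% of all genes, with the largest values for TRM1 (1.38 ± 0.21), TRM2 (1.29 ± 0.25) and the dihydrouridine synthase DUS3 (1.28 ± 0.20). Of 19 genes for RNA polymerase III and its factors, which transcribe tRNA genes, 11 fell and 2 rose in experiment 1. In experiment 2, 10 fell and 3 rose in HOG1-KO cells, and 11 fell and 4 rose in WT cells. The decreases in experiment 1 were led by the subunits RPC25 (-3.29 ± 0.15), RPC31 (-2.49 ± 0.13) and RPC34 (-2.02 ± 0.12). MAF1, the repressor of this polymerase, rose by 0.91 ± 0.11 in experiment 1, and TFC7 of factor TFIIIC by 0.68 ± 0.11. RPC25 was the 1 gene of this group with a called difference of responses (1.03 ± 0.27, edgeR adjusted p = 0.0218).

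In the cytosol, 10 of 14 elongation and termination factors fell and 2 rose in experiment 1, 5 fell and 1 rose in HOG1-KO cells, and 10 fell and 1 rose in WT cells of experiment 2. YEF3, elongation factor 3, had 1951, 1583 and 1599 CPM in salt, against 8735, 9778 and 10365 CPM in basal cells of experiment 1 (-2.49 ± 0.15, edgeR adjusted p = 1.61e-08). NEW1, a related ATPase (-1.94 ± 0.09), and EFB1, the exchange factor of elongation factor 1 (-1.36 ± 0.11), also fell. HEF3, a paralog of YEF3 (0.84 ± 0.12), and CAM1 (0.41 ± 0.12), which encodes a subunit of the exchange complex, rose in experiment 1. CAM1 was called lower in WT cells of experiment 2 (-0.54 ± 0.19, edgeR adjusted p = 0.0236). It had 473, 319 and 439 CPM in WT salt there, against 469, 752 and 572 CPM in WT basal cells. The groups overlapped, and the lowest value was that of the deviating WT salt replicate 2. Of 8 mitochondrial translation factors 3 rose and 1 fell in experiment 1, 2 rose and 3 fell in HOG1-KO cells, and 2 rose and 1 fell in WT cells of experiment 2, where the rising counts are near the shares of all genes. AIM23, an initiation factor (0.79 ± 0.19), RRF1, the ribosome recycling factor (0.59 ± 0.23), and the translation factor MEF2 (0.47 ± 0.14) rose in experiment 1, and MEF1 fell (-0.26 ± 0.11). MEF2 had a called difference of responses (-0.92 ± 0.26, edgeR adjusted p = 0.0372). In WT salt cells it had 27.6 CPM in the deviating replicate 2, against 18.9 and 18.7 CPM in replicates 1 and 3.

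Most genes listed for general amino acid control, which include subunits of initiation factor 2 and of its exchange factor, fell alongside the cytosolic synthetases. The kinase gene GCN2 did not. It had 36.2, 44.2 and 40.2 CPM in salt, against 45.7, 40.1 and 36.9 CPM in basal cells of experiment 1. In HOG1-KO cells GCN2 had 99.2, 90.1 and 117 CPM in salt, against 79.5, 82.7 and 76.9 CPM in basal cells. Its groups overlapped in WT cells of both experiments. Of the 13 listed genes 12 were lower in experiment 1, 10 in HOG1-KO and 10 in WT cells of experiment 2. None was called higher by edgeR in these 3 comparisons. GCN4 had 489, 413 and 379 CPM in salt, against 1356, 1549 and 1492 CPM in basal cells of experiment 1 (-1.78 ± 0.12, edgeR adjusted p = 6.78e-08). GCN4 also fell in HOG1-KO (-1.21 ± 0.22) and WT cells (-1.53 ± 0.22) of experiment 2. SUI2, a subunit of initiation factor 2 (-1.33 ± 0.09), and GCD6, a subunit of its exchange factor (-1.33 ± 0.12), fell in experiment 1. Of 26 amino acid synthesis genes that Gcn4 is known to activate, 15 fell and 4 rose in experiment 1, 10 fell and 3 rose in HOG1-KO cells, and 9 fell and 3 rose in WT cells of experiment 2, beside 33.8%, 25.6% and 27.2% of all genes lower. HIS1 of histidine synthesis (-2.18 ± 0.09) and ILV5 of branched-chain amino acid synthesis (-1.75 ± 0.12) fell in experiment 1, and ARG3 of arginine synthesis (1.26 ± 0.24) and LYS1 (0.79 ± 0.12) and LYS20 (0.38 ± 0.10) of lysine synthesis rose. The difference of responses was called higher for 1 and lower for 1 of the 26, the lower one being LYS20 (-1.09 ± 0.20, edgeR adjusted p = 0.00218).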

How the data were processed

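Poly(A) RNA was sequenced as 50 bp single-end reads in 18 libraries, with a stranded TruSeq kit in experiment 1 and the Lexogen CORALL kit in experiment 2, per the labels' protocols. The authors deposited raw counts per gene. HISAT2 version 2.1.0, featureCounts version 1.5.1 and build R64 were used, per the submitters' processing notes. Of strand setting and multi-mapping reads in counting, nothing is stated. No member overlaps another RefSeq gene and none holds a 50-base window repeated in the genome (0 of 35 for each). Totals were 11135883 to 16527859 counts per library. Replicate counts differed by more than sampling noise (chi-square per degree of freedom 6.53 to 174), and 0 table columns were left unmapped.

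Counts were tested with edgeR (version 4.0.16, R 4.3.3): TMM scaling, filterByExpr, robust quasi-likelihood F tests on group means, two-sided p-values adjusted by Benjamini-Hochberg over all genes. The fit for experiment 1 used 6 libraries and that for experiment 2 all 12, with 1 shared spread. The scripts were tested on simulated data. Levels are TMM-scaled CPM as mean ± SD, and changes are log2 ± SE. Binomial intervals (95%, Clopper-Pearson) cover counting error only. The members and lists were chosen with earlier results of these data known, so classes and lists are described by counts and medians without a test. All 35 members may be named, with values by library for the 2 largest called changes per direction, class and comparison and for ALA1, GRS1, HTS1 and VAS1. From each list up to 3 of the largest called changes per direction are named, in WT cells of experiment 1 and in the difference of responses. GCN2 is named outside this rule. TRM140 and PUS8 were not matched, and 1 gene that this rule selects is not reported here.

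In HOG1-KO, deviations of same-numbered salt and basal libraries from their group means correlated at 0.225, 0.424 and 0.313, so the numbers were taken to pair these libraries. In WT cells they were -0.588, 0.103 and -0.531 in experiment 1 and -0.648, -0.645 and 0.694 in experiment 2, and the numbers were not taken as pairs. WT libraries with different numbers also correlated, at up to 0.678 in experiment 1 (basal replicate 3 with salt replicate 1). In experiment 2 the highest value was 0.848, between the deviating WT basal replicate 1 and WT salt replicate 2. The reason for this was not tested. Alternatives were DESeq2 (version 1.42.0), its size factors (RLE), total counts as scaling, no filter, at least 10 CPM in 3 libraries, fits to 6 libraries only, the replicate number as block, and omission of single libraries. A block on HOG1-KO libraries and fits without 2 WT libraries were added after seeing the data. Tables and figures were made in Python 3.11.15 (pandas 2.3.3; matplotlib 3.10.9).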

Additional observations from a re-analysis of the deposited data

How the results depend on the processing

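Signs of the class medians in the 3 salt responses were the same under every alternative run. Total-count scaling moved the medians of experiment 2, with the median of all genes at 0.21 in WT and 0.19 in HOG1-KO cells. The cytosolic and mitochondrial medians were then -0.24 and 0.63 in HOG1-KO, and -0.35 and 0.53 in WT cells. In HOG1-KO cells 7 cytosolic genes were then lower, beside 1054 of all 6107 genes. Under this scaling, HOG1-KO over WT gave cytosolic and mitochondrial medians of 0.18 and 0.11 in basal cells and 0.34 and 0.18 in salt. The median of all genes was 0.17 in basal cells and 0.16 in salt. In salt 7 cytosolic genes were then higher, beside 997 of all 6107 genes. At least 10 CPM in 3 libraries gave a cytosolic median of -0.38 in HOG1-KO cells. The 6 WT libraries alone gave 9 lower cytosolic genes. DESeq2 called 5 cytosolic genes higher and 1 mitochondrial gene lower for HOG1-KO over WT in salt. Without the 2 deviating WT libraries that comparison had 6 cytosolic and 3 mitochondrial genes higher and a cytosolic median of 0.22, and basal cells had 1 cytosolic gene higher and a mitochondrial median of 0.0816. For the fits to 6 libraries and without the 2 deviating libraries, no share of all genes is given beside these counts. The cause was not tested.

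Leaving out 1 library gave cytosolic medians of -1.16 to -1.05 in experiment 1 and -0.64 to -0.50 in WT cells of experiment 2, where mitochondrial medians were 0.17 to 0.49. The difference of responses had medians of 0.11 to 0.21 (cytosolic) and -0.12 to 0.19 (mitochondrial). For HOG1-KO over WT, mitochondrial medians were -0.0748 to 0.0772 in basal cells. In salt they went with 0 to 3 higher mitochondrial genes, 0 to 1 higher cytosolic genes and cytosolic medians of 0.15 to 0.24. The pair ratio changed by a median of -0.90 to -0.81 in HOG1-KO cells. Only the 250 bases before the start codon held the Gcn4, STRE, PAC and RRPE cores in 6.24%, 18.8%, 17.01% and 21.7% of all coding genes, and there the cytosolic class had 8, 1, 5 and 17 promoters with them and the mitochondrial class 0, 3, 1 and 1.

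The replicate block on all libraries of an experiment ended 4 calls and added 0, with DIA4 in experiment 1 (adjusted p = 0.114), AIM10 in WT cells of experiment 2 (adjusted p = 0.0544) and ALA1 (0.0537) and AIM10 (0.0505) in HOG1-KO cells. It left 14 lower cytosolic genes in WT and 10 in HOG1-KO cells. The block on the 6 HOG1-KO libraries, whose numbers were taken to pair, added 8 calls, with 1 cytosolic gene higher, and ended 0. Among the added calls, HTS1, FRS1, VAS1, DED81, MSM1, MSK1 and ISM1 were also called on these 6 libraries without the block. Mitochondrial members had as few as 48 counts in a library, which limits the precision of their changes.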
